A study of Mus musculus with 12 samples.

Results

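The expression of 57 genes of DNA replication and mitosis was followed on 12 arrays of mouse pancreas, in yDucts, Ducts and Acini. The genes were chosen by symbol. For each, the probe set that the platform annotation pairs with that symbol alone was used, and where there were several, the brightest of them, by its average across the arrays. A probe set was found for 56 of the 57 genes, among 18194 genes with a probe set of this kind, and all 56 passed the filter on dim probe sets, which left 14991 genes for testing. Ccnb1, the gene of cyclin B1, had no probe set with a single symbol and was not analysed here.

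There were 4 arrays per group, lettered A to D. yDucts are organoids derived from acini of R26-rtTA; tetO-YAP S127A mice, in which doxycycline switches on a YAP mutant that resists inhibition by the Hippo kinases. R26-rtTA is active in most cell types, so in these mice the acinar origin of the organoids rests on the isolation of acini and not on the promoter. In other mice the study labelled acinar cells through Ptf1a-CreERTM. The yDucts from those mice carried the label, and organoids from their native ducts did not. After the doxycycline treatment the yDucts were kept without it. Ducts are organoids grown from native duct fragments picked by hand. Acini were freshly isolated from adult mice. The sources used here do not give the genotype of the mice behind Ducts and Acini. Both organoid types grew in Matrigel in 1 medium that contained EGF, Noggin, FGF10 and R-Spondin1, so culture and cell state cannot be told apart in a comparison with Acini. Whether the 4 letters of a group stand for separate animals, isolations or cultures, or for clonal lines, is likewise unstated, and the p-values below measure only the spread between these arrays.

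A cell copies its genome once per division. In G1 phase the ORC, CDC6 and CDT1 proteins load the ring of MCM proteins onto origins, which become active in S phase with CDC45 and the GINS complex, and the polymerases, the sliding clamp PCNA and its loader RFC then copy the DNA. Mitosis follows under cyclin B and CDK1, with Aurora and Polo kinases, kinesins and a checkpoint that holds sister chromatids together until every kinetochore is attached. Replication genes are switched on at the G1 to S transition largely by E2F factors, and mitosis genes later, in G2, through promoters that carry CHR and CCAAT elements bound by the DREAM and B-MYB complexes, FOXM1 and NF-Y. In the resting adult pancreas acinar cells and duct cells rarely divide. Organoids are kept in growth factors and expand.

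The promoters differ between the early and the late genes, and 5 are shown because the arrays separated their genes in the organoids. Each window runs from 250 bases before to 50 bases after the annotated start of transcription (RefSeq, GRCm38.p6), and capitals mark matches, on either strand, to CHR (TTTGAA, or its variant TTTAAA), to the box named for its letters CCAAT, and to E2F (TTTGGCGC, TTTCGCGC, TTTCCCGC or TTTGCCGC). Ccnb2, cyclin B2, lies on the minus strand at chr9:70421505-70421804, Mki67, the proliferation marker Ki-67, on the minus strand at chr7:135716330-135716629, and Anln, the cytokinesis protein anillin, on the minus strand at chr9:22389157-22389456. Rrm2, the small subunit of ribonucleotide reductase, lies on the plus strand at chr12:24708004-24708303, and Mcm6, a subunit of the replicative helicase, on the minus strand at chr1:128359656-128359955.
Ccnb2: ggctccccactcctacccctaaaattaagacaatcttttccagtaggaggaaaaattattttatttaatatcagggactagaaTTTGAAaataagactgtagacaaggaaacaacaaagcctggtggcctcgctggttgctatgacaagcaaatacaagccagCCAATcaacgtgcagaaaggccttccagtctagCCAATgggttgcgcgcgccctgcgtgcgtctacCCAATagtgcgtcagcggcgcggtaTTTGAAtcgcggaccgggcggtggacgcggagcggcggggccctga
Mki67: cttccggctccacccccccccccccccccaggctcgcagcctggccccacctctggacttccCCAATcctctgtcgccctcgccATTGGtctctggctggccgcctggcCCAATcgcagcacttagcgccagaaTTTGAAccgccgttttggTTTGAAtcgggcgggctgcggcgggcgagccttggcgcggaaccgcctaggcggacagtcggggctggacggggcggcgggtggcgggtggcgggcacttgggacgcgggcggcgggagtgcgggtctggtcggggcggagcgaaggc
Anln: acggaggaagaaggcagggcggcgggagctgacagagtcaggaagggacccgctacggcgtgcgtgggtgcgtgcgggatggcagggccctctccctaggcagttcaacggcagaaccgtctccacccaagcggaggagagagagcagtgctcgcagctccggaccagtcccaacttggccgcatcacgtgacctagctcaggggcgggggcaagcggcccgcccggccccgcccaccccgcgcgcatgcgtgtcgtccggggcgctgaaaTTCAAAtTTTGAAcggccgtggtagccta
Rrm2: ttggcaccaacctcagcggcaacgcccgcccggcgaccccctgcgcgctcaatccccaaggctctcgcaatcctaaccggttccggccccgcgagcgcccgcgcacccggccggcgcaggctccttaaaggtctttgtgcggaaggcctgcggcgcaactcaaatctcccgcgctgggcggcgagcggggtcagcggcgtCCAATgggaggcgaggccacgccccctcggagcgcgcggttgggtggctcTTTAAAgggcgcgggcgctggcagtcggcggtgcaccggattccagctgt
Mcm6: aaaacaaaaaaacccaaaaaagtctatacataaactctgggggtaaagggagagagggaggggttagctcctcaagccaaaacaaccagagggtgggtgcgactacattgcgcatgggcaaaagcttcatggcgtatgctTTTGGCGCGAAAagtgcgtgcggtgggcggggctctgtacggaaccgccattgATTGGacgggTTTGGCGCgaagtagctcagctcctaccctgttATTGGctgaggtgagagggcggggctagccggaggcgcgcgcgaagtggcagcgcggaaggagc
Ccnb2 and Mki67 each held 2 CHR and 3 CCAAT matches, Anln 2 CHR matches, and Rrm2 1 of each. Mcm6 held 3 E2F matches, 2 of which overlap on opposite strands, and 2 CCAAT matches.

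Promoters of this length were listed for 45 of the 57 genes and for 27025 genes in all, and where a gene had more than 1, which held for 5 members, the first was read. CHR letters stood in 25 of the 45 members (55.6%), against 27.8% of all promoters, CCAAT letters in 31 (68.9%, against 37.9%), and both in 20 (44.4%, against 10.9%). The E2F letters stood in 9 (20%, against 2.32%). Among the genes of mitosis, which take in the mitotic kinases, the spindle checkpoint and the chromosome and spindle genes, 18 of 21 promoters held CHR and 16 held both CHR and CCAAT. Among the genes of replication, which take in the other 4 roles, 7 of 24 held CHR and 8 held E2F, and 6 of the 9 promoters of origin licensing held E2F. A match is a run of letters and not a measured binding site, and matches of different motifs overlapped in 1 member.

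**Figure D1:**
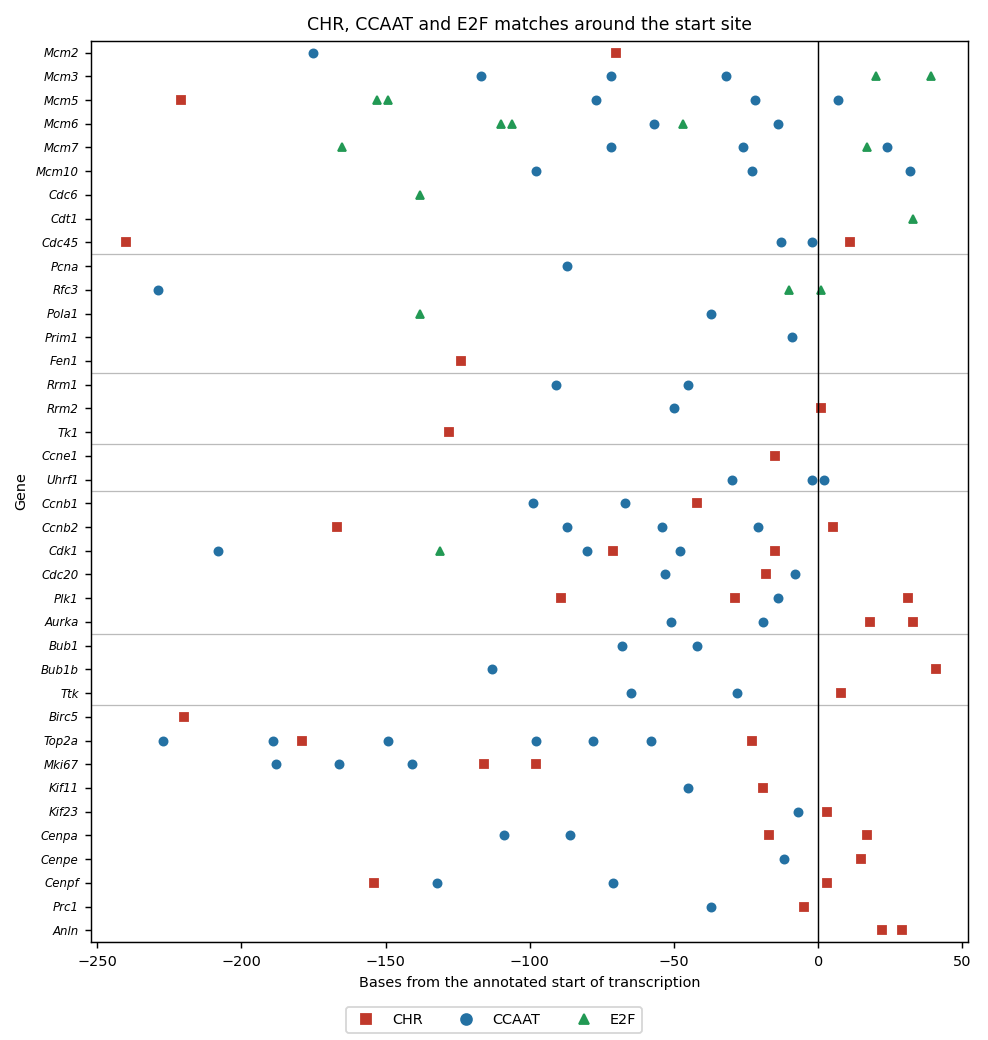
Position of each CHR (squares), CCAAT (circles) and E2F (triangles) match in the promoters of the members with a match, in bases from the annotated start of transcription (horizontal axis, line at the start), with genes in rows and lines between roles. CHR matches stand in 18 of 21 promoters of mitosis genes, and 8 of the 9 promoters with E2F letters belong to replication genes.

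The labels of the tissues were borne out by the averages of their markers. The 9 measured acinar markers averaged between 3.74 and 3.93 (log2) on the yDucts arrays and between 3.54 and 3.97 on the Ducts arrays, against 13.03 to 13.15 on the Acini arrays. The 8 measured of 10 listed duct markers averaged 9.81 to 10.02 on yDucts, 9.81 to 10.99 on Ducts and 7.72 to 8.03 on Acini arrays. Not every duct marker followed that average. Sox9 averaged 6.9 in yDucts, 7.2 in Ducts and 6.7 in Acini, and Muc1 10.7, 11.5 and 11.4. Endocrine, immune, erythroid, endothelial and stromal markers all read higher on average in Acini than in either organoid group, and the part of these other cells in the levels of Acini was not tested. In bulk RNA, fewer dividing cells and less RNA per dividing cell cannot be told apart. The Acini arrays also differed in RNA quality. The 3′ minus the 5′ signal of the Gapdh control was 1.54 ± 0.29 (log2, SD, n = 4) on the Acini arrays, against -0.15 ± 0.02 in yDucts and -0.04 ± 0.04 in Ducts. Within the organoids, Ducts C and D correlated at 0.995 over all genes and at only 0.959 to 0.973 with Ducts A and B, and yDucts B correlated at 0.990 or 0.991 with the other yDucts arrays, which correlated at 0.995 to 0.997 with each other.

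The members did not behave as 1 block. Over all 56 genes the median level was 6.87, 4.97, 7.08 and 6.50 on yDucts A to D, 5.89, 6.11, 5.31 and 5.13 on Ducts A to D, and 5.28, 5.22, 5.60 and 5.25 on Acini A to D. The median of all genes tested lay between 6.59 and 6.62 on the yDucts arrays and between 6.49 and 6.59 on the Ducts arrays. On the Acini arrays it was lower, between 5.89 and 6.04, so levels in Acini and in organoids stand beside different medians. yDucts B thus fell below every other array in its members' median, and 3 of the 4 yDucts arrays lay above all Ducts and Acini arrays. The polymerase genes did not follow this order, with medians of 7.02, 6.71, 7.18 and 6.96 on yDucts A to D, 6.58, 6.73, 6.53 and 6.53 on Ducts A to D and 4.97 to 5.29 on the Acini arrays, so that both organoid groups lay above Acini on every array. The chromosome and spindle genes were low on yDucts B, Ducts C and Ducts D and high on yDucts A, C and D, with 6.34, 3.80, 6.75 and 5.95 on yDucts A to D, 4.93, 5.60, 3.94 and 3.79 on Ducts A to D and 4.97 to 5.19 on the Acini arrays.

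**Figure D2:**
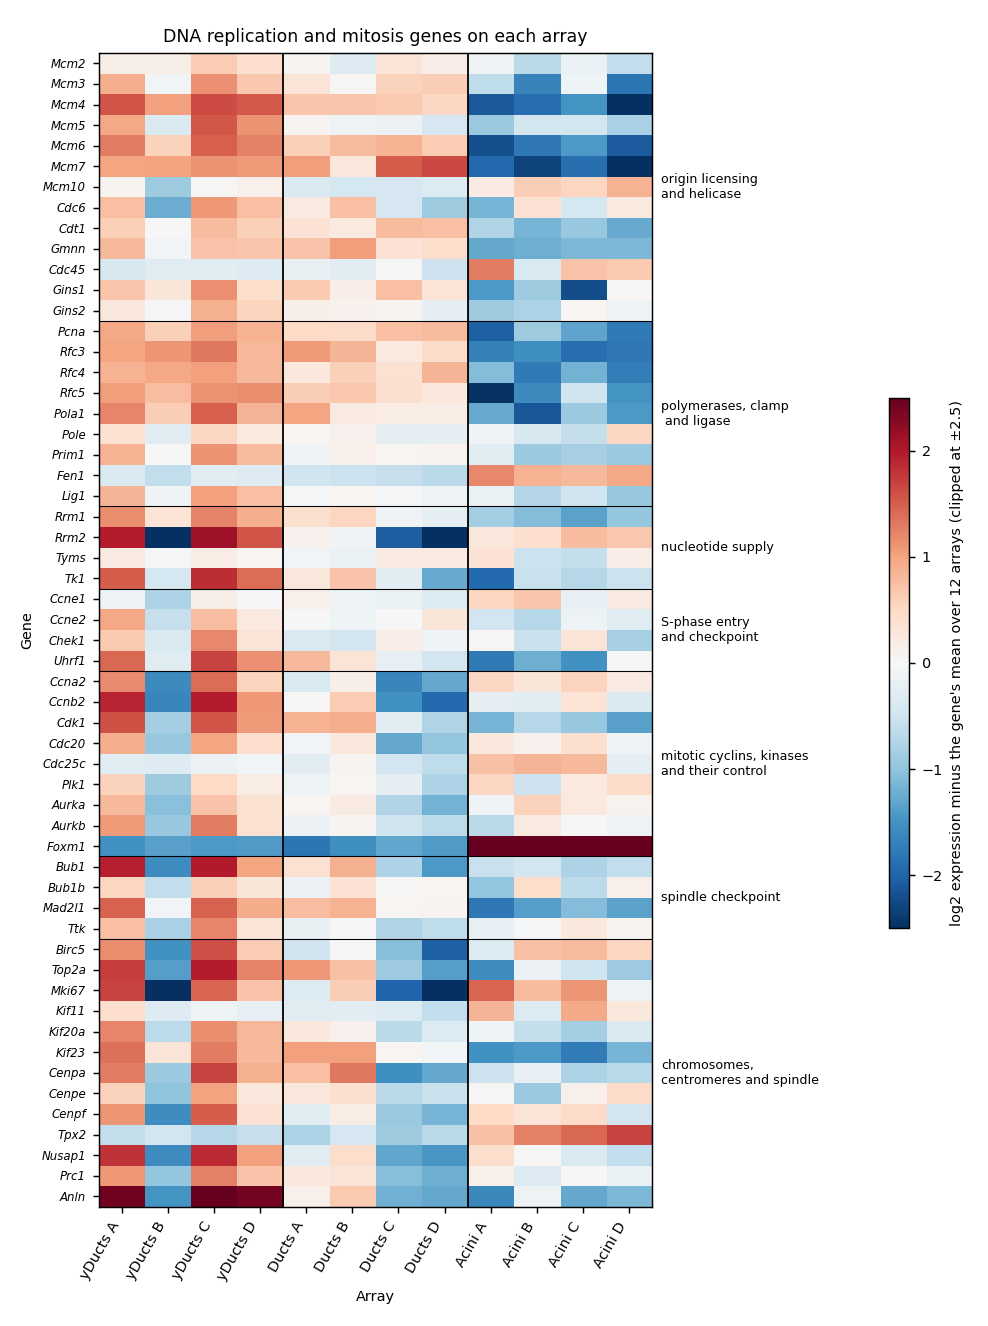
Level of each of the 56 genes (rows, grouped by role) on each of the 12 arrays (columns), as the log2 value minus the gene's mean over all arrays, with red above and blue below that mean and colours clipped at ±2.5. Most replication genes at the top are red in both organoid groups and blue in Acini, while mitosis genes at the bottom are blue on yDucts B, Ducts C and Ducts D.

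Ducts against Acini asks how the genes of the division cycle differ between native duct organoids and the exocrine tissue. Replication genes led the increases: several helicase, clamp and clamp loader genes rose by about 4- to 10-fold, whereas 3 of 26 mitosis genes were called higher. Of the 56 members, 19 were higher, 7 lower and 30 not called (limma, adjusted p under 0.05), where 42.7% of all genes tested were called higher and 33.1% lower, 75.7% in all. The share of members called higher, 33.9%, was below that background, and so was the share called lower, 12.5%. Ducts had the higher mean in 34 members, against 54.6% of all genes, and the groups did not overlap in 19 members that were higher (37.2% of all genes) and 6 that were lower (27.3%). The median difference of the members was 0.35 on the log2 scale, against 0.20 over all genes. Scaling mattered here: the median of all genes became -0.15 with quantile normalization and -0.17 with cyclic loess, with 15 members higher and 11 lower under each, and the members' medians were then 0.29 and 0.17. The share of members higher was then 26.8% under each, against 28.7% and 25.8% of all genes. The share lower was 19.6%, against 35.9% and 36.6%.

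Origin licensing and helicase genes held the largest increases. Of 13 members 7 were higher and 2 lower in Ducts, with a median difference of 1.45, and 6 were higher under quantile normalization and cyclic loess, where the median was 0.67 and 0.63. Mcm7, an MCM helicase subunit, read 10.33, 9.56, 10.80 and 10.94 on Ducts A to D and 7.34, 6.97, 7.39 and 6.74 on Acini A to D. The groups did not overlap, and the gene was 9.83-fold higher in Ducts (3.30 ± 0.26, log2 difference ± SE, adjusted p = 2.19e-07). Mcm4, its partner in the same ring, read 8.06, 8.07, 8.03 and 7.90 in Ducts and 5.27, 5.48, 5.89 and 4.54 in Acini, a 6.59-fold difference (2.72 ± 0.24, adjusted p = 5.91e-07) with the 4 Ducts arrays within 0.17 of each other. Mcm6 read 8.33, 8.53, 8.62 and 8.38 in Ducts and 5.54, 5.95, 6.31 and 5.66 in Acini (6.06-fold, 2.60 ± 0.21, adjusted p = 3.01e-07). These subunits were higher on all 4 Ducts arrays than on any Acini array, although Mcm7 varied by 1.38 among the Ducts arrays. Mcm2, another subunit, did not pass: it read 8.51, 8.11, 8.77 and 8.60 in Ducts and 8.34, 7.77, 8.28 and 7.82 in Acini, and its difference of 0.44 ± 0.20 turned to -0.45 with quantile normalization and to -0.66 with cyclic loess, while its other probe set differed by 1.55. Other members of this role that rose were Mcm3 (2.73-fold, not called under quantile normalization or cyclic loess, and -0.25 with 1 of its other 4 probe sets), Cdt1, the loading factor (2.97-fold), Gmnn, which encodes its inhibitor geminin (3.54-fold), and Gins1 (3.03-fold).

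Some licensing genes ran the other way. Mcm10, which helps to start the helicase, read 4.97, 4.89, 4.91 and 4.99 in Ducts and 5.54, 5.94, 5.87 and 6.21 in Acini, so it was lower on every Ducts array (-0.95 ± 0.22, adjusted p = 0.00163). Cdc45, a part of the active helicase, averaged 4.78 ± 0.22 in Ducts and 5.59 ± 0.69 in Acini (SD, n = 4 each), with overlapping groups (-0.81 ± 0.27, adjusted p = 0.0164). Its call was lost without Ducts A and B, and also without Ducts C and D. Cdc6, the loading ATPase, read 4.35, 4.88, 3.71 and 3.24 on Ducts A to D and between 2.96 and 4.49 on the Acini arrays, and did not pass (0.17 ± 0.51).

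The polymerase, clamp and ligase genes rose in 7 of 9 members, with a median of 1.83. Under quantile normalization and cyclic loess 5 were higher, with medians of 1.35 and 1.06. Pcna, the sliding clamp that tethers the polymerases, read 10.81, 10.79, 11.06 and 11.10 in Ducts and 8.27, 9.41, 8.99 and 8.53 in Acini, 4.41-fold higher (2.14 ± 0.22, adjusted p = 2.14e-06). Rfc3, a subunit of the complex that loads the clamp, read 6.58, 6.37, 5.77 and 5.97 in Ducts and 3.83, 3.99, 3.64 and 3.74 in Acini, 5.18-fold higher (2.37 ± 0.19, adjusted p = 2.05e-07). No Acini array reached the lowest Ducts array for either gene. Rfc5, from the same complex, averaged 6.75 ± 0.19 in Ducts and 4.75 ± 0.81 in Acini (3.99-fold), and Rfc4 and the polymerase alpha gene Pola1 rose by 3.89-fold and 3.55-fold. Pole, the catalytic subunit of polymerase epsilon, averaged 5.30 ± 0.19 in Ducts and 5.23 ± 0.49 in Acini, a difference of 0.06 with a 95% interval from -0.46 to 0.58. Fen1, the flap endonuclease of lagging-strand synthesis, was lower (-1.54 ± 0.14), but the sign rests on the probe set: the brightest probe set of Fen1 fell while its other probe set differed by 0.71.

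Genes of nucleotide supply and of S-phase entry were called less consistently, with 1 of 4 higher in each. Rrm1, the large subunit of ribonucleotide reductase, read 7.45, 7.60, 6.98 and 6.81 in Ducts and 6.19, 5.98, 5.72 and 6.10 in Acini, 2.32-fold higher (1.21 ± 0.23, adjusted p = 0.000365), but not called under quantile normalization or cyclic loess. Its partner Rrm2 read 7.18, 6.99, 5.01 and 4.29 on Ducts A to D and 7.36, 7.49, 7.86 and 7.76 on Acini A to D. With this probe set all Ducts arrays thus lay below all Acini arrays, Ducts A and B closely and Ducts C and D by 2 log2 units or more. The difference did not pass (-1.75 ± 0.98, adjusted p = 0.12). The other probe sets of Rrm2 differed by only -0.19 and -0.69. Uhrf1, which carries DNA methylation over to the new strand, averaged 5.83 ± 0.57 in Ducts and 4.58 ± 0.80 in Acini (2.37-fold, adjusted p = 0.0271). Its other probe set, above the 30th percentile on all arrays, differed by -0.10. The call was lost under 10 of the 26 alternative settings, which include both of these scalings and the fit without Ducts A and B. The cyclin E genes Ccne1 and Ccne2, which drive S-phase entry, did not pass (-0.43 ± 0.23 and 0.46 ± 0.28). Tyms, thymidylate synthase, averaged below the 30th percentile of the arrays in all groups and allows no comparison.

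Of the 26 mitosis genes, 3 were higher and 4 lower. Mad2l1, the spindle checkpoint protein MAD2, read 7.40, 7.50, 6.67 and 6.70 in Ducts and 4.85, 5.26, 5.54 and 5.30 in Acini (3.56-fold, 1.83 ± 0.33, adjusted p = 0.000238). Kif23, a kinesin of the central spindle, read 7.65, 7.65, 6.66 and 6.54 in Ducts and 5.11, 5.19, 4.87 and 5.45 in Acini (3.92-fold, adjusted p = 6.14e-05). Both were called under all 26 alternative settings. Cdk1, the kinase that starts mitosis, read 7.24, 7.28, 6.11 and 5.62 in Ducts and 5.21, 5.66, 5.42 and 5.02 in Acini (2.35-fold, adjusted p = 0.0417), with Ducts D below the highest Acini array, and it lost its call under quantile normalization and cyclic loess. Mki67 read 6.09, 7.04, 4.46 and 3.79 in Ducts and 7.89, 7.22, 7.54 and 6.31 in Acini. Its mean was lower in Ducts (-1.90 ± 0.91) but did not pass (adjusted p = 0.0728). Top2a, the topoisomerase that untangles sister chromatids, read 7.37, 7.02, 5.38 and 4.91 in Ducts, where A and B exceeded and C and D fell within the Acini range of 4.74 to 6.15 (0.66 ± 0.71, adjusted p = 0.413).

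The 4 lower mitosis genes were Foxm1, Tpx2, Cdc25c and Kif11, a kinesin that pushes spindle poles apart (-0.80 ± 0.26). Kif11 and Cdc25c lost their calls in the fits on quantile- and loess-normalized values and when Ducts C and D were left out. Foxm1, the transcription factor of the late cell cycle, read 5.29, 5.57, 5.81 and 5.68 in Ducts and 9.97, 10.21, 9.80 and 10.22 in Acini, 22.1-fold lower in Ducts (-4.46 ± 0.15, adjusted p = 7.66e-11), the smallest adjusted p of any member. Its other 3 probe sets differed by -1.34, -1.25 and -0.63, the last of them dim on every array, and the mean of all 4 by -1.92. Tpx2, which activates Aurora A at the spindle, read 4.02, 4.39, 3.92 and 4.13 in Ducts and 5.54, 6.07, 6.23 and 6.49 in Acini (3.91-fold lower, -1.97 ± 0.19, adjusted p = 1.22e-06), although another of its probe sets moved the opposite way. Cdc25c, the phosphatase that activates CDK1, averaged below the 30th percentile in Ducts and was at least 1.66-fold lower (adjusted p = 0.00497).

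**Figure D3:**
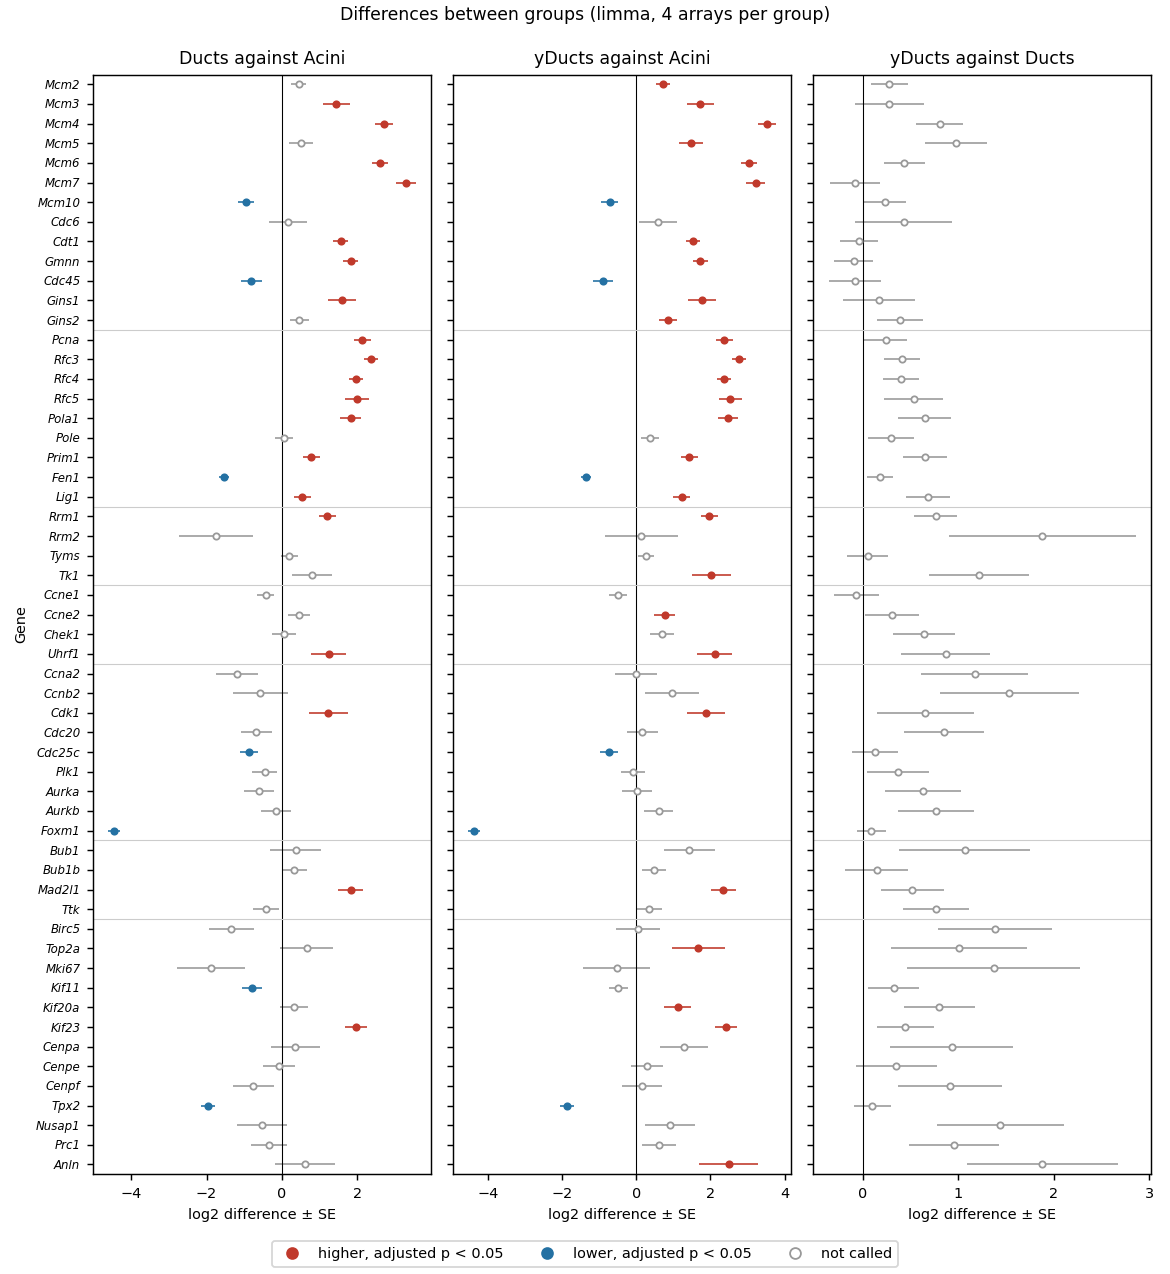
Log2 difference between groups for each gene (rows), with the SE of the limma fit as bars, for Ducts against Acini, yDucts against Acini and yDucts against Ducts, where red and blue mark genes called higher and lower and open circles genes not called. Most replication genes in the upper rows lie to the right in both comparisons with Acini, and 51 of 56 genes lie to the right of 0 for yDucts against Ducts with none called.

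yDucts against Acini sets the YAP-derived organoids beside the tissue they came from. More members were called than in Ducts, and again chiefly in replication: 21 of the 27 genes called higher belong to the replication roles. Of the 56 members 27 were higher, 6 lower and 23 not called, where 43.6% of all genes were called higher and 32.6% lower, 76.2% in all. That gives 48.2% of members higher and 10.7% lower. Under quantile normalization and cyclic loess 46.4% and 42.9% of members were higher, against 29.5% and 27.1% of all genes. The share lower stayed at 10.7%, against 35.6% and 36% of all genes. yDucts had the higher mean in 45 members, against 55.4% of all genes, and the groups did not overlap in 20 that were higher (42.1% of all genes) and 4 that were lower (29.6%). The members' median was 0.88, against 0.24 over all genes, and 0.78 and 0.81 under quantile normalization and cyclic loess, where the median of all genes was -0.15 under either. The same 4 Acini arrays serve both comparisons, so the results are not independent of each other.

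In yDucts 10 of 13 licensing and helicase genes were higher and 2 lower, with 8 and 6 higher under quantile normalization and cyclic loess. Mcm4 read 8.95, 8.41, 9.01 and 8.90 in yDucts, above the 4.54 to 5.89 of the Acini arrays, and had the largest increase of any member (11.5-fold, 3.52 ± 0.24, adjusted p = 6.27e-08). Mcm7 read 10.26, 10.28, 10.41 and 10.35 in yDucts, against 6.74 to 7.39 in Acini (9.29-fold), and Mcm6 read 9.04, 8.32, 9.23 and 9.0, against 5.54 to 6.31 (8.18-fold). Each of these genes was high on yDucts B as well as on the other yDucts arrays. Mcm2 was called higher in yDucts (8.58, 8.58, 9.07 and 8.86, against 7.77 to 8.34 in Acini, 1.65-fold, adjusted p = 0.00463), but its difference turned to -0.16 with quantile normalization and to -0.39 with cyclic loess, while its other probe set differed by 1.82. Mcm10 and Cdc45 were lower (-0.72 ± 0.22 and -0.90 ± 0.27). Cdc45 differed by only -0.01 with the probe set of largest interquartile range.

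The polymerase group had 7 of 9 members higher and 1 lower, with a median of 2.36, and 6 higher under quantile normalization and cyclic loess. Rfc3 read 6.51, 6.62, 6.84 and 6.35 in yDucts, against 3.64 to 3.99 in Acini (6.87-fold, 2.78 ± 0.19, adjusted p = 5.22e-08). Pcna read 11.28, 10.91, 11.35 and 11.17, against 8.27 to 9.41 (5.20-fold, 2.38 ± 0.22, adjusted p = 8.46e-07). Rfc5 read 7.30, 7.03, 7.38 and 7.42, against 3.80 to 5.77 (5.78-fold, adjusted p = 9.36e-06). In all of them every yDucts array exceeded every Acini array. Fen1 was lower with its brightest probe set (8.49, 8.23, 8.56 and 8.52 in yDucts and 10.04, 9.71, 9.66 and 9.81 in Acini, -1.36 ± 0.14) and higher with the other (1.09). Pole did not pass (0.36 ± 0.24). Among the nucleotide genes Rrm1 rose 3.92-fold (8.23, 7.40, 8.29 and 7.96 in yDucts, against 5.72 to 6.19 in Acini, adjusted p = 5.84e-06) and the thymidine kinase Tk1 4.06-fold, and among the S-phase genes Uhrf1 rose 4.33-fold (7.14, 5.41, 7.39 and 6.85, against 3.93 to 5.73, adjusted p = 0.00116). Ccne2 was called higher and averaged below the 30th percentile in Acini (at least 1.17-fold).

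The mitosis genes had 6 members higher and 3 lower in yDucts. Mad2l1 read 8.11, 6.56, 8.11 and 7.56 in yDucts, against 4.85 to 5.54 in Acini (5.09-fold, adjusted p = 2.9e-05), and Kif23 read 8.0, 6.94, 7.90 and 7.43, against 4.87 to 5.45 (5.32-fold, adjusted p = 1.06e-05). These were the mitosis genes whose groups did not overlap upwards. Anln read 8.10, 4.19, 8.20 and 8.07 in yDucts and 4.08, 5.55, 4.41 and 4.56 in Acini: A, C and D stood well above every Acini array, and B below all of them but 1 (5.62-fold, 2.49 ± 0.79, adjusted p = 0.0118). Top2a read 8.02, 4.91, 8.26 and 7.53, with B again within the Acini range (3.18-fold, adjusted p = 0.0478, not called under 11 of the 26 settings). Cdk1 read 7.96, 5.52, 7.95 and 7.44 (3.71-fold, adjusted p = 0.0045, not called under cyclic loess), and Kif20a, a kinesin of cytokinesis, was at least 1.45-fold higher. Mki67 read 8.12, 3.71, 7.89 and 7.14 in yDucts, against 6.31 to 7.89 in Acini, and did not pass (-0.53 ± 0.91, adjusted p = 0.607). On yDucts A, C and D the level of Mki67 lay in or just above the Acini range. Foxm1 read 5.60, 5.75, 5.67 and 5.68 in yDucts and was 20.7-fold lower than in Acini (-4.38 ± 0.15, adjusted p = 9.81e-11), with the mean of its probe sets differing by -1.82. Tpx2 and Cdc25c were lower as well (3.66-fold and 1.67-fold). Tpx2 lost its call with the mean of its probe sets (-0.31) and Cdc25c under each other scaling. The sign for Tpx2 rests on the probe set, since its other probe sets differed by 0.95, 0.25 and -0.58.

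Without yDucts B, the array with the lowest members' median, 3 of 9 mitotic kinase genes, 4 of 4 checkpoint genes and 7 of 13 chromosome and spindle genes were higher than in Acini, where 1, 1 and 4 were higher with all arrays. The polymerase genes had 7 higher with or without that array. Without yDucts B 66.1% of the members were called higher, against 42.2% of all genes. With all arrays 48.2% were, against 43.6% of all genes. The array was singled out by these same genes, and 49 of the 56 were lowest on it. Leaving it out raised their yDucts means by construction, so these counts describe that array and are no test.

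yDucts against Ducts asks whether organoids of acinar origin express the division cycle as native duct organoids do. Nearly every member had the higher mean in yDucts, and none was called. Of 56 members 51 had a higher mean in yDucts, where 49.3% of all genes did, and the median difference was 0.53, against 0.00 over all genes. limma called 0 higher and 0 lower, where 2.15% of all genes were called higher and 0.987% lower, 3.14% in all. At an unadjusted p under 0.05 there were 12 members higher (8.41% of all genes) and 0 lower (5.36%). The groups did not overlap for 2 members, Mcm4 and Rfc5, both higher in yDucts (7.4% of all genes were), and for none that was lower (4.86%).

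The largest differences were also the least certain. Rrm2 differed by 1.88 ± 0.98, with a 95% interval from -0.24 to 4.0, and Anln by 1.88 ± 0.79, with an interval from 0.16 to 3.59. Mki67 differed by 1.37 ± 0.91 (-0.59 to 3.33) and Top2a by 1.01 ± 0.71 (-0.53 to 2.55). The intervals of Rrm2, Mki67 and Top2a hold 0 as well as differences of more than 4-fold. Replication genes with close replicates gave narrower limits: Mcm7 differed by -0.08 ± 0.26 (-0.65 to 0.49), Pcna by 0.24 ± 0.22 (-0.24 to 0.72) and Fen1 by 0.18 ± 0.13 (-0.11 to 0.47). Mcm4 (0.80 ± 0.24, 1.74-fold) and Rrm1 (0.76 ± 0.23, 1.69-fold) had the smallest unadjusted p-values of the members, 0.00584 and 0.00574.

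The count turned on a few arrays. Without yDucts B, 14 members were called higher (25%, against 2.12% of all genes), and without Ducts A and B 7 were (12.5%, against 8.62% of all genes). yDucts B was picked by the low values of these same genes, so its removal raised most of their differences by construction. With array weights, which reduce the influence of variable arrays, 40 were higher and 1 lower (71.4% and 1.79%), against 21% and 20.2% of all genes. The weights were 0.399 and 0.288 for Ducts A and B and 4.369 and 1.724 for Ducts C and D. That fit thus set yDucts mainly beside Ducts C and D, much as the fit without Ducts A and B did. Without Ducts C and D 0 were called (2 at an unadjusted p under 0.05), and the members' median was 0.27. Of the 14 members called without yDucts B, 9 were mitosis genes, 5 of them chromosome and spindle genes, and 2 were polymerase genes. Rrm2 then differed by 3.09 and Anln by 2.86, where Rrm1 differed by 0.95.

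The members also varied widely between replicates. Within yDucts the members' highest and lowest arrays lay a median of 1.21 apart (log2), against 0.30 over all genes. The range exceeded 2 in 18 of 56 members (32.1%), against 142 of 14991 genes (0.947%), and all 18 were lowest on yDucts B. Most genes with so wide a range were lowest on that array, 108 of the 142. Rrm2 had a range of 5.08, Mki67 of 4.41 and Anln of 4.01, and these 3 stood among the 10 genes with the widest range on the whole array. Rrm2 read 9.04, 4.11, 9.19 and 8.65 on yDucts A to D, so B was low by more than 4 log2 units. The range differed by role: the median range was 2.62 for chromosome and spindle genes, 1.93 for mitotic kinases and 0.49 for polymerase genes. Mcm7, with 10.26 to 10.41 on all 4 arrays, and Cdc45, with 4.63 to 4.73, hardly varied. The other probe set of Cdc45 had an SD of 0.22 in yDucts, against 0.04 for the one used.

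**Figure D4:**
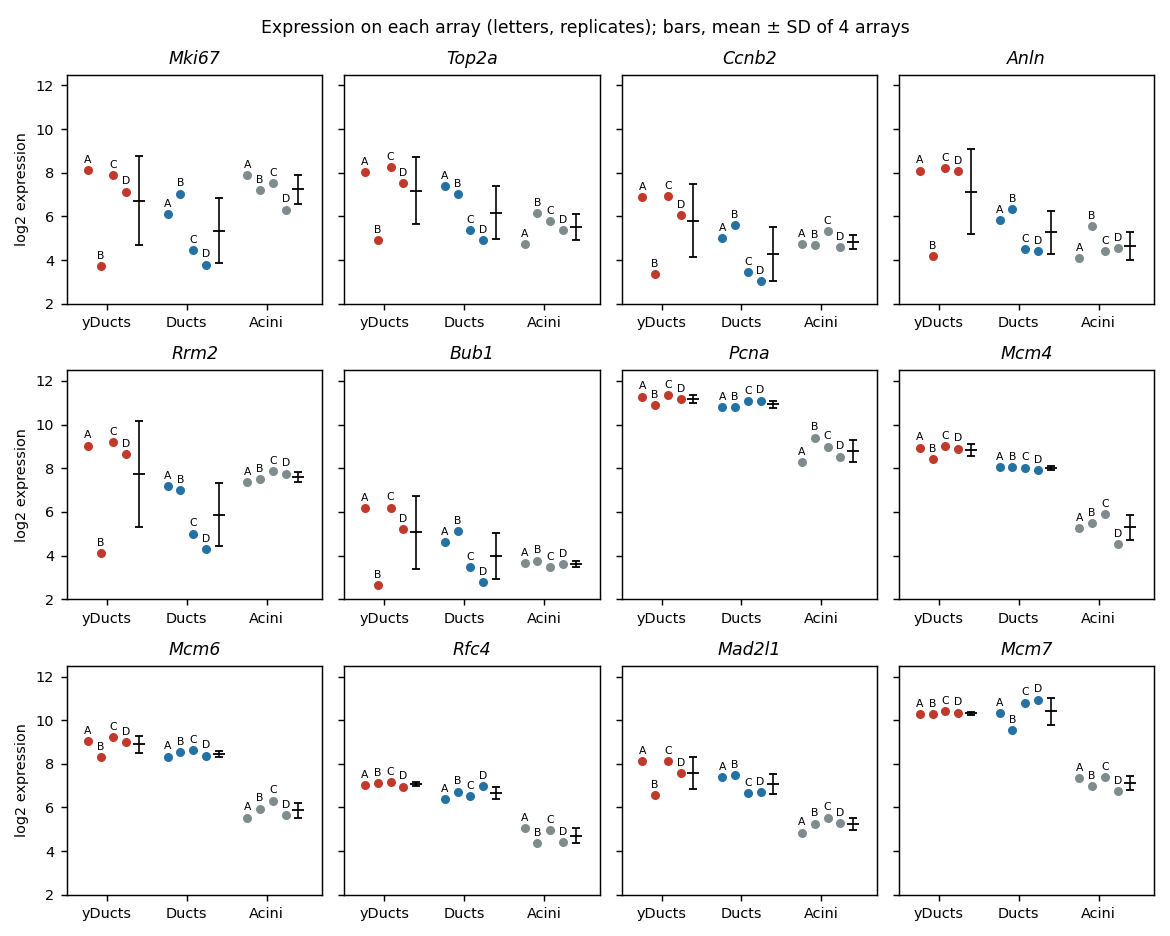
Level (log2, vertical axis) of 12 genes on each array, as lettered points for the 4 arrays of yDucts, Ducts and Acini, with black bars for the mean ± SD. Mki67, Top2a, Ccnb2, Anln, Rrm2 and Bub1 are low on yDucts B and on Ducts C and D, while Pcna, Mcm4, Mcm6 and Rfc4 are above every Acini array on all organoid arrays.

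Ducts showed the same division, between A and B on the one hand and C and D on the other. Both C and D read below both A and B in 38 of 56 members (67.9%), against 29% of all genes, and yDucts B read below A, C and D in 49 (87.5%), against 29.5%. Both patterns held for 37 members (66.1%), against 13.3% of all genes. By role they held for 12 of 13 chromosome and spindle genes, 8 of 9 mitotic kinase genes, 5 of 13 licensing genes and 4 of 9 polymerase genes. Ccnb2, chosen after its values were seen, as was Bub1 below, read 6.88, 3.35, 6.94 and 6.05 on yDucts A to D, 5.0, 5.60, 3.45 and 3.03 on Ducts A to D and 4.61 to 5.32 on the Acini arrays. Bub1, a kinase of the spindle checkpoint, read 6.16, 2.65, 6.20 and 5.22 on yDucts and 4.60, 5.11, 3.46 and 2.80 on Ducts. Cdc20, which the checkpoint holds back, read 7.70, 5.85, 7.78 and 7.21 on yDucts and 6.73, 7.07, 5.52 and 5.83 on Ducts, against 6.70 to 7.20 in Acini. In each of these genes yDucts B was the lowest yDucts array, and Ducts C and D lay below Ducts A and B. Bub1b, a further checkpoint kinase, read 5.62, 4.46, 5.67 and 5.39 on yDucts and 4.93, 5.44, 5.07 and 5.13 on Ducts, so in Ducts it did not divide. Ttk, the kinase at the head of the checkpoint, read 4.36, 2.80, 4.82 and 3.93 on yDucts and 3.43, 3.59, 2.86 and 2.98 on Ducts, with the low arrays below the 30th percentile.

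Not every member took part. Foxm1 varied by 0.15 within yDucts and by 0.52 within Ducts with its brightest probe set, whose SD in yDucts was 0.06. Its other probe sets above the 30th percentile on all arrays had SDs of 0.09 and 0.33 in yDucts. Tpx2 varied by 0.22 within yDucts and by 0.47 within Ducts with its brightest probe set, whose SD in yDucts was 0.09. However, 2 of its other probe sets, above the 30th percentile on 9 and 11 arrays, had SDs of 0.99 and 0.75 in yDucts. Mcm7 ran the other way in Ducts, with 10.80 and 10.94 on C and D and 10.33 and 9.56 on A and B. In Acini the members' ranges were close to those of all genes (median 0.83, against 0.80), and 1 of 56 exceeded 2. The arrays concerned also stand apart over all genes, as given above, and what separates yDucts B, Ducts C and Ducts D from the other organoid arrays was not tested.

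**Figure D5:**
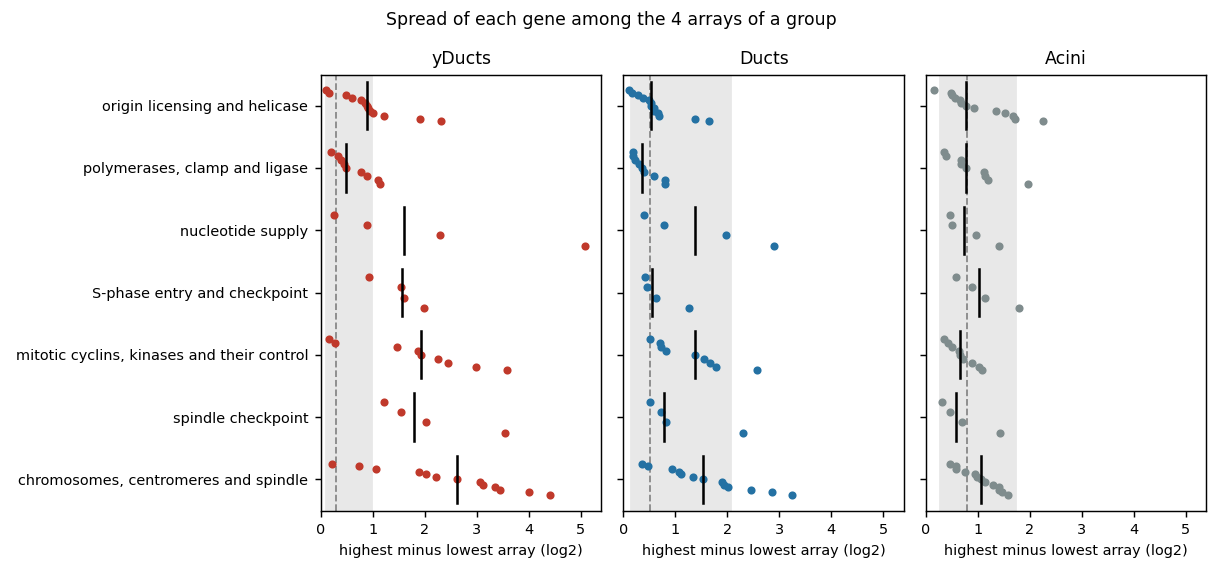
Highest minus lowest of the 4 arrays (log2, horizontal axis) for each gene (points) by role in yDucts, Ducts and Acini, with a black line at the median of the role, a dashed line at the median of all genes tested and grey from their 5th to their 95th percentile. In yDucts most chromosome and spindle genes lie beyond the 95th percentile of 0.98, with a median of 2.62, while in Acini nearly all genes lie within the grey band.

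The promoter classes shown above ran along with the spread in their medians, but overlapped gene by gene. In yDucts the ranges of members with CHR letters ran from 0.10 (Cdc45) to 5.08 (Rrm2). Those of members without ran from 0.15 (Mcm7) to 3.55 (Bub1). The 24 analysed members with CHR letters had a median yDucts range of 2.02, and the 20 without of 0.96, whereas over all genes tested the median was 0.30 with and without CHR. In Ducts the values were 1.35 and 0.61, and in Acini 0.80 and 0.78. The 7 members with E2F letters and no CHR had a median range of 0.88 in yDucts. These are descriptions over genes that share their arrays, and role and promoter class cannot be told apart in them.

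Other genes of the same processes were read from lists chosen with earlier results known. Of 29 other replication genes, 17 rose (58.6%) and 2 fell (6.9%) in Ducts relative to Acini, against 42.7% and 33.1% of all genes. In yDucts 21 rose (72.4%) and 2 fell (6.9%), against 43.6% and 32.6%. Quantile normalization left 12 and 4 in Ducts and 15 and 5 in yDucts, and cyclic loess 11 and 8 in Ducts and 14 and 5 in yDucts. Of all genes 28.7% then rose in Ducts and 29.5% in yDucts with quantile normalization, and 25.8% and 27.1% with cyclic loess. Rpa3, a subunit of the single-strand binding protein, had the largest differences (3.91 in Ducts and 4.15 in yDucts), followed in both by Orc6, of the origin recognition complex (3.39 and 3.22), and Tipin, of the fork protection complex (2.76 and 2.97). Orc1, the largest subunit of the origin recognition complex, and Cdc7, a kinase that fires origins, were the lower ones in Ducts (-1.71 and -1.30). Of 37 other mitosis genes, 10 were higher and 10 lower in Ducts (27% each), both below the shares of all genes. In yDucts 15 were higher (40.5%) and 7 lower (18.9%), also below those shares. The standing of the higher calls depended on scaling. Quantile normalization gave 12 higher and 12 lower in Ducts and 17 and 8 in yDucts, and cyclic loess 8 and 12 in Ducts and 17 and 9 in yDucts. In yDucts the share higher then lay above that of all genes (29.5% and 27.1%), and in Ducts only with quantile normalization (28.7%). Bub3, a checkpoint partner of BUB1, Smc4, of the condensin complex, and Ect2, which activates RhoA for cytokinesis, had the largest differences in Ducts (2.58, 2.21 and 2.16). In yDucts Smc4 and Ect2 led with 2.77 each, before Ckap2, a protein of spindle microtubules (2.62). Spc24, of the kinetochore, was lower in both (-2.09 in Ducts and -1.44 in yDucts). In yDucts against Ducts limma called 0 of these genes either way. At an unadjusted p under 0.05 there were 8 higher and 3 lower, where 8.41% and 5.36% of all genes were.

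The division of the organoid arrays was also seen in these genes. Both patterns, yDucts B low and Ducts C and D low, held for 24 of 37 other mitosis genes (64.9%), 13 of 29 other replication genes (44.8%) and 4 of 22 E2F, DREAM and B-MYB regulators (18.2%), against 13.3% of all genes. Cep55, which acts in the last step of cytokinesis, read 6.84, 3.21, 6.92 and 6.14 on yDucts A to D and 5.39, 5.35, 3.78 and 3.77 on Ducts A to D. The regulators varied little: their median range was 0.29 in yDucts, close to the 0.30 of all genes. Of the 22 regulators 11 rose (50%) and 7 fell (31.8%) in Ducts relative to Acini, against 42.7% and 33.1% of all genes. In yDucts 11 rose (50%) and 4 fell (18.2%), against 43.6% and 32.6% of all genes. With each array centred on its median, 1 fell in Ducts, where 26.8% of all genes did. Tfdp1, the DNA-binding partner of E2F factors, rose most (3.52 in Ducts and 3.63 in yDucts), followed by E2f3 (3.05 and 3.16), by the repressor E2f6 in Ducts (2.48) and by the pocket protein gene Rbl2 in yDucts (2.98). None of the 22 was called between yDucts and Ducts (2 at an unadjusted p under 0.05, both higher, where 8.41% of all genes were).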

How the data were processed

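Total RNA of 12 samples was hybridised to 1 mouse expression array each. The values are log2 expression values deposited by the authors, made with RMA (background correction, normalization and summary of each probe set) per the submitters' processing notes. The version of RMA, or whether all 12 arrays were normalized in 1 run, was not given in the sources used here. The values were used as deposited, without further scaling. RMA assumes a similar spread of signal on all arrays, and a shift of one tissue against another depends on it.

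Of 45101 probe sets, 64 controls were left out, and 34958 had 1 gene symbol in the platform annotation, 932 several and 9211 none, and only the first kind was used. A gene was tested if its probe set exceeded the 30th percentile of the array on at least 4 of 12 arrays, a step that ignores the groups. That percentile averaged 3.72 on the Acini arrays, against 3.2 in yDucts and 3.21 in Ducts. limma 3.58.1 in R 4.3.3 fitted the 3 group means on all 12 arrays (residual df 9, prior df 3.72), with 2-sided p-values adjusted by Benjamini and Hochberg over all genes tested, and calls at an adjusted p under 0.05. Every adjusted p and interval in the text comes from this fit, and errors after a difference are its standard errors. A fold is 2 to the power of the log2 difference. Where a group averaged below its arrays' 30th percentile, the fold is a lower bound against that percentile. The fit was tested on simulated data.

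The members, roles and gene lists were chosen with earlier results of these data known. Values on every array were given for up to 6 called members per direction and comparison with the largest differences, for 3 members per role (the 2 highest and the lowest in mean), and for Mki67, Pcna, Mcm2, Top2a, Cdk1 and Foxm1. Other members, and Orc1, Cdc7, Spc24 and Cep55, were named after their values were seen. In the other lists, up to 3 called genes with the largest differences were named. The 26 alternative settings changed the scaling, the filter, the choice of probe set, the model or the arrays, and 1 of them, on the probe set, was added after seeing the data. The number of arrays limits the precision.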

Additional observations from a re-analysis of the deposited data

Results flagged for a closer look

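Of 93 sets of 4 arrays examined, 1 gene in 1 group each, 5 held an array set apart from the other 3 by most of the range of its group, and chance gives about 1 in 20. On yDucts B, Anln was at 4.19 (gap to the nearest array 0.968 of the range), Mcm10 at 4.45 (0.911), Rrm2 at 4.11 (0.894) and Cdc6 at 2.90 (0.857), each the lowest of the yDucts arrays. On Acini D, Cdc25c was at 3.25 (0.89), the lowest of the Acini arrays.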

How the results depend on the processing

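In Ducts against Acini 7 members were lower, and 11 with only both groups in the fit and after cyclic loess or quantile normalization, 7 to 11 with each array left out in turn (11 without yDucts B), 12 without Ducts A and B and 4 without Ducts C and D. In yDucts against Ducts 0 were called, 1 higher with only both groups in the fit, 40 higher and 1 lower with array weights (21% and 20.2% of all genes), 0 to 14 higher with each array left out (14 without yDucts B, where 2.12% of all genes were, 1 without Acini D or Ducts B) and 7 higher without Ducts A and B (8.62% of all genes). Mcm2 in Ducts against Acini (0.44) turned to -0.66 with cyclic loess, and in yDucts against Acini (0.72) to -0.16 with quantile normalization and -0.39 with cyclic loess. Fen1 read from its probe set outside the _x_at class, a choice made after seeing the data, was 0.71 in Ducts and 1.09 in yDucts against Acini. The cause of these changes was not tested. The counts of members higher in Ducts and in yDucts against Acini stayed within 1.5 times the main counts of 19 and 27 under every setting run. Letters shared between groups did not pair the arrays, since the deviations of yDucts and Ducts correlated at 0.134, -0.324, -0.35 and 0.11 for A to D. The replicate block left the counts at 19 higher and 7 lower, 27 and 6, and 0 and 0. Called under all 26 settings were 13 of the 19 genes higher in Ducts and 18 of the 27 higher in yDucts. Of the genes called lower, 4 of 7 in Ducts and 1 of 6 in yDucts, Foxm1, were called under all of them.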
